A study of Homo sapiens with 18 samples.

Results

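Control siRNA was compared with JAG1 siRNA in MDA-MB-231 cells, an established triple-negative breast cancer line with a mesenchymal-like phenotype, after 7 days of 3D culture in Matrigel. The members were all named genes above 1 CPM (counts scaled to library size, with TMM factors, by the authors) in at least 3 of the 6 libraries of this comparison, which gave 12774 of the 21411 genes in the deposited table. The 6 libraries, of 18 in the series, were 3 biological replicates of parental Jag1WT cells given a nontargeting siRNA (siCtrl) and 3 given a mixture of siRNAs against Jagged1 (siJag1). Both groups were transfected with Lipofectamine RNAiMAX 7 h before 50000 cells were seeded in 2 mg/ml Matrigel over a 4 mg/ml coat, and medium was changed on day 4. No clone was picked in either group. The comparison rests on 1 control siRNA and 1 mixture of targeting siRNAs, and RNA was taken once, 7 days after seeding, so the course of the knockdown before that day is not seen. Jag1KO, used below for comparison with its parental Jag1WT cultures, is a mixture of 15 single-cell clones edited at JAG1 with Cas9. Jag1KO and Jag1WT were grown in the same Matrigel culture but without siRNA transfection, and share no library with siCtrl or siJag1.

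Jagged1 is a transmembrane ligand of the Notch receptors. Binding to a receptor on a neighbouring cell leads to cleavage by ADAM proteases and then by γ-secretase, and the freed intracellular domain enters the nucleus, where it joins the DNA-binding protein RBPJ and a Mastermind coactivator at target genes such as HES1 and HEY1. In breast cancer, Jagged1-driven Notch signalling is known for its links to poor outcome, stem-like cells and metastasis, and the extracellular matrix that tumor cells deposit, built of collagens, laminins and microfibril proteins, shapes how they spread.

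Between 13336576 and 17919453 reads per library were counted on genes. All 9 markers fixed for the line were present (VIM 2754 to 3662 CPM, AXL 1011 to 1252 CPM), and ESR1 had 0 reads in every library. Of the fibroblast and mural markers, DCN had 0 reads in every library and COL1A2 stayed at or below 0.0567 CPM. RGS5 was at 7.00 to 10.8 CPM in siCtrl and 8.33 to 8.60 in siJag1. COL1A1 was at 5.02 to 9.31 CPM in siCtrl and 2.66 to 5.79 in siJag1, and PDGFRB reached 1.35 CPM in siCtrl. The summed level of the 8 markers found in the table was 13.6 to 22.1 CPM in siCtrl and 12.1 to 16.4 in siJag1. The 5 endothelial markers summed to 12.6 to 13.7 CPM in siCtrl and 18.1 to 19.4 in siJag1, of which PECAM1 and KDR were above 1 CPM and CDH5 had 0 reads throughout. Their part in the results was not tested. The summed leukocyte markers overlapped between the groups (113.7 to 161 against 126 to 157 CPM), and nearly all of the sum was CD68 (110 to 158 against 124 to 154 CPM). CD14 was lower in siJag1 without overlap (1.68 to 2.10 against 2.28 to 3.54 CPM), and PTPRC stayed at or below 0.162 CPM. The luminal sums overlapped as well. Of the luminal markers, ERBB2 was at 36.6 to 40.3 CPM in siCtrl and 34.5 to 46.0 in siJag1. GATA3 was at 6.88 to 7.64 and 7.41 to 11.2 CPM, and EPCAM at 6.24 to 8.57 and 6.29 to 8.82 CPM. No adipocyte marker passed 1 CPM. These libraries are bulk RNA, so fewer cells of a state and less RNA per cell cannot be told apart.

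Replicate 2 stood apart from replicates 1 and 3, and more so in siJag1. MKI67, a marker of cycling cells, was at 37.0, 162 and 64.5 CPM in siCtrl replicates 1, 2 and 3 and at 50.5, 434 and 60.5 CPM in siJag1. Both replicate 2 libraries were thus highest in their group, and the siJag1 one was far above every other. The deviations from the group means were correlated between libraries of 1 number (correlations across genes of 0.543, 0.522 and 0.264 for replicates 1, 2 and 3). The largest correlations with a library of another number were 0.138, −0.283 and 0.192, so the pairing was weak for replicate 3. The replicate number was kept as a block in the test. Where leaving out replicate 2 moved a named value by over 1.5 times, the value without it is mostly given beside it.

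JAG1 itself, at chr20:10637684-10673999 (hg38, RefSeq GRCh38.p14), was measured at 441, 626 and 531 CPM in siCtrl and at 166 (replicate 1), 203 (replicate 2) and 131 (replicate 3) CPM in siJag1. Every siJag1 library was below every siCtrl library. The mean fell from 532 ± 92.4 to 167 ± 35.7 CPM (SD, n = 3 each), which left 31.3% of the control level, and the log2 fold change was −1.69 with a standard error of 0.14 (edgeR quasi-likelihood test with the replicate block, adjusted p = 0.0213). Without the block the fold change was −1.68 and the adjusted p 0.103, above the threshold. The JAG1 transcript remaining in siJag1 lay within the range found in Jag1KO, which was 116 to 205 CPM. This compares RNA only, since the counts do not tell edited from intact transcripts. The authors checked the knockout by DNA sequencing and Western blotting, so a like RNA level does not mean a like loss of Jagged1 protein.

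Few genes passed the test. It called 4 genes lower (0.0313% of the genes tested) and 0 higher (0%), a call being an adjusted p under 0.05 with a fold over 1.5. At an unadjusted p under 0.05 the counts were 632 lower (4.95%) and 375 higher (2.94%), and the median log2 fold change of all genes was 0.004. Of the genes tested, 6246 had a fold change below 1 and 6528 above it. All siJag1 libraries lay below all siCtrl libraries for 658 of the 12774 genes and above them for 680. Separation of the groups, given for single genes below, was thus about as frequent in either direction and does not by itself mark a gene out. DESeq2 with the same block called 41 lower and 10 higher. Apart from JAG1, the genes called by edgeR were COL6A3, COL18A1 and LTBP3, and all 3 encode proteins of the extracellular matrix.

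COL6A3, at chr2:237324018-237414164, encodes the α3 chain of collagen VI, a microfibrillar collagen that links cells to the surrounding matrix. It was at 80.3, 88.0 and 73.8 CPM in siCtrl and at 22.4, 15.1 and 11.9 CPM in siJag1. The groups were far apart, and the siJag1 mean was 20.4% of the control, lower than the 31.3% of JAG1 itself. Its log2 fold change was −2.33 (SE 0.16, adjusted p = 0.0213) and −2.21 without replicate 2.

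COL18A1, at chr21:45405165-45513720, encodes collagen XVIII, a basement membrane collagen and proteoglycan whose C-terminal fragment is endostatin. It was at 57.9, 68.7 and 53.1 CPM in siCtrl and at 25.5, 29.5 and 22.4 CPM in siJag1, so that each siJag1 library held less than every control. The log2 fold change was −1.22 (SE 0.094, adjusted p = 0.0213), and the 3 pairs lay within −1.15 to −1.21 on the log2(CPM + 1) scale. Exons of SLC19A1 overlap it on the opposite strand, and SLC19A1 was at 0 in all 6 libraries. The strand setting of the counting is not given in the sources used here.

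LTBP3, at chr11:65538559-65558359, encodes a latent TGFβ-binding protein of the microfibrils. It was at 30.0, 34.0 and 29.6 CPM in siCtrl and at 13.4, 11.6 and 11.8 CPM in siJag1, with no overlap. The log2 fold change was −1.35 (SE 0.12, adjusted p = 0.0369).

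**Figure D1:**
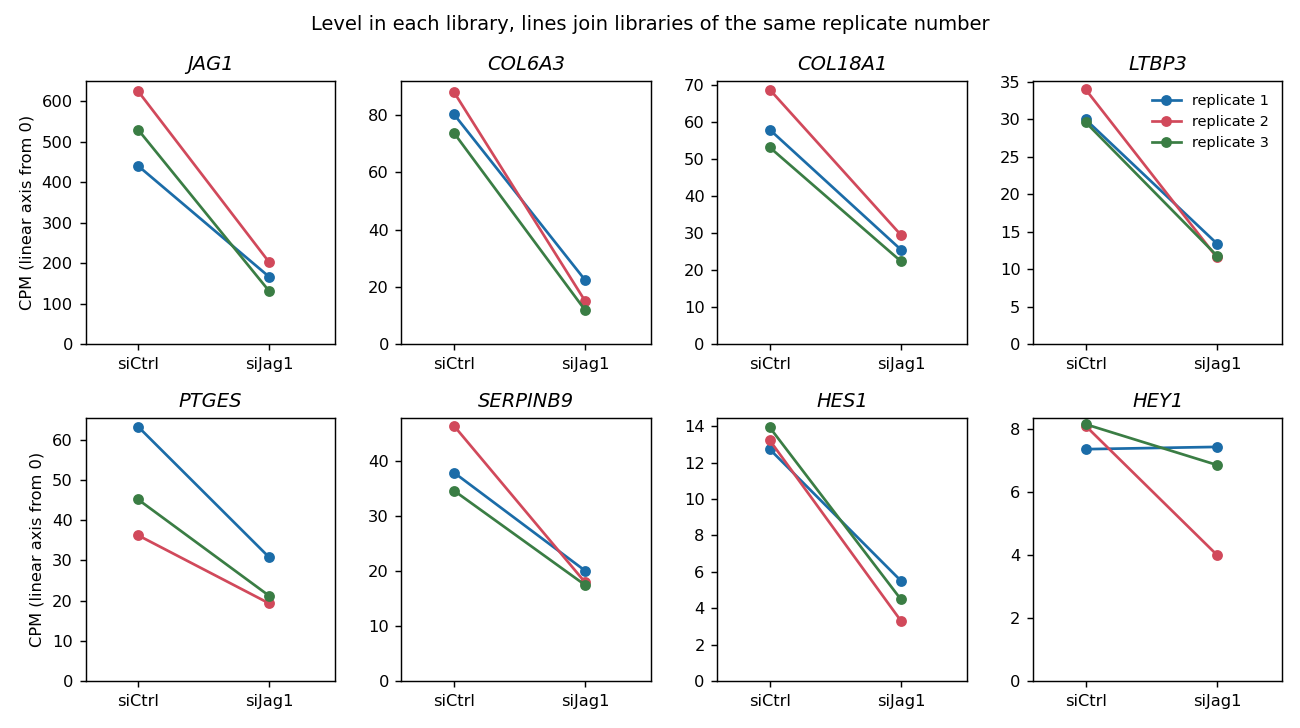
CPM of 8 genes in each library (vertical axes, linear from 0), with lines joining the siCtrl and siJag1 libraries of the same replicate number. JAG1, COL6A3, COL18A1 and LTBP3 were called, and for these and for PTGES, SERPINB9 and HES1 all siJag1 points lie below all siCtrl points, while for HEY1 the largest drop is in replicate 2, from 8.09 to 4.00 CPM, and replicate 1 does not drop.

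**Figure D2:**
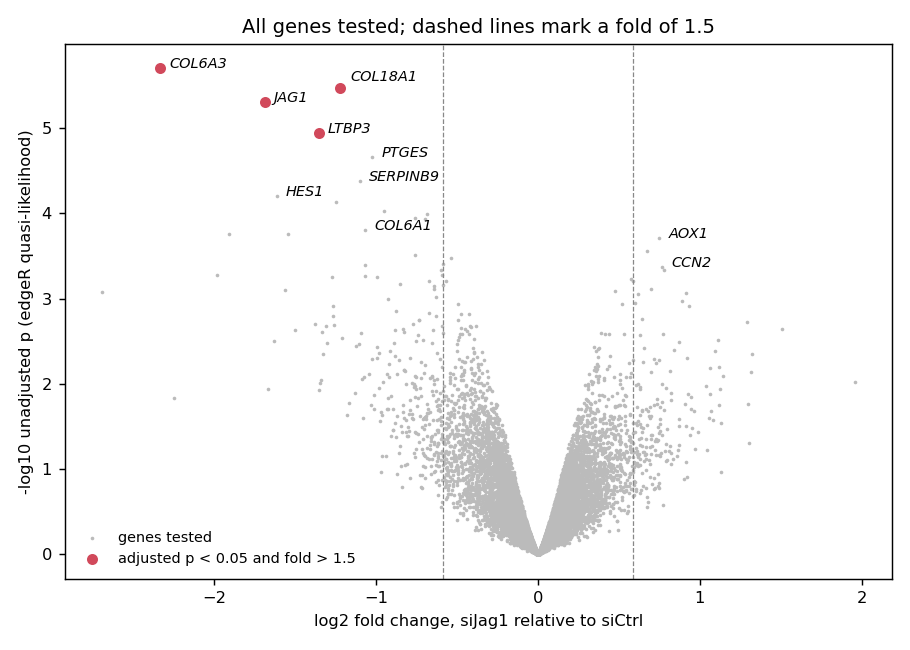
Log2 fold change of siJag1 relative to siCtrl against the −log10 of the unadjusted p for the 12774 genes tested. The 4 genes in red passed an adjusted p of 0.05 and a fold of 1.5, all to the left of 0, and no gene to the right passed.

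The Notch pathway was examined next, from ligand to target. Per kilobase of transcript, JAG1 was by far the most abundant Notch ligand in siCtrl, at 88.9 RPKM (CPM per kilobase, from the gene lengths behind the authors' values), against 0.302 for JAG2, 0.0911 for DLL4, 0.0246 for DLL1 and 0 for DLL3. Among the receptors NOTCH2 led at 37.2 RPKM, followed by NOTCH1 at 7.89, while NOTCH3 (0.0492) and NOTCH4 (0.0992) were below the filter. JAG1 in siJag1, at 27.8 RPKM, therefore still stood above every other ligand. Of the 12 ligands and receptors listed, 11 were in the table and 6 were tested. All 6 had a fold change below 1, against 6246 of all 12774 genes, and 1 of them (JAG1) was called. The list median was −0.46, or −0.19 without replicate 2, against 0.004 for all genes. JAG1, the gene targeted, counts in these 6 and in the median.

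JAG2, the other Jagged ligand, was at 1.70, 1.62 and 1.98 CPM in siCtrl and at 0.964, 0.541 and 1.19 CPM in siJag1. These levels are near the filter, and the log2 fold change of −1.01 (SE 0.31) did not pass (adjusted p = 0.561). NOTCH1 was at 82.6, 68.1 and 69.3 CPM in siCtrl and at 61.2, 24.9 and 65.7 CPM in siJag1. Its log2 fold change of −0.65 rested on replicate 2 and became −0.28 without it. NOTCH2 stayed between 441 and 486 CPM in siCtrl and between 379 and 429 in siJag1 (log2 fold change −0.17, SE 0.11, or −0.09 without replicate 2). The noncanonical ligand DNER was at 16.5 to 18.6 CPM in siCtrl and 16.6 to 18.4 in siJag1 (log2 fold change −0.02), and DLK2 overlapped as well (−0.27, or −0.06 without replicate 2).

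HES1, a transcriptional repressor and the best-known direct Notch target, had the seventh-smallest p among the genes with lower values. Its promoter and that of HES4 are shown because they carry the core of the RBPJ-binding motif, TGGGAA, close to the start of transcription. The capitals mark the core, found by a search on both strands. The bases are the 120 just before the RefSeq start, 5′ to 3′ on the strand of the gene (GRCh38.p14), at chr3:194136028-194136147 on the plus strand for HES1 and chr1:1000098-1000217 on the minus strand for HES4.
HES1: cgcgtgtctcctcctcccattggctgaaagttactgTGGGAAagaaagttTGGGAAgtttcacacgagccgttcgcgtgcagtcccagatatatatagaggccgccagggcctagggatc
HES4: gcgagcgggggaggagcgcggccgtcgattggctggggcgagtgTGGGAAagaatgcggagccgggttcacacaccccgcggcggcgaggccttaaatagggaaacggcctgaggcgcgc
HES1 has 2 cores, 84 and 70 bases upstream, in the same orientation and not overlapping, and HES4 has 1, 76 bases upstream. A core on either strand was found in 24% of the 35116 promoter windows of 300 bases in the table, and in 25.8% of the 31 windows that matched genes lower by over 1.5-fold in every pair, described below. Neither COL6A3, LTBP3 nor JAG1 had one in its windows. COL18A1 had 2, at 216 and 95 bases before 1 of its starts.

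HES1 was at 12.7, 13.2 and 13.9 CPM in siCtrl and at 5.50, 3.30 and 4.48 CPM in siJag1. The groups were well separated, and the siJag1 mean was 33.3% of the control. The log2 fold change was −1.61 (SE 0.19), or −1.43 without replicate 2, yet the adjusted p of edgeR was 0.114, above the threshold. DESeq2 with the same block gave HES1 an adjusted p of 8.76e-06. HES4, a related repressor, was at 1.98, 2.70 and 2.28 CPM in siCtrl and at 0.964, 0.433 and 1.47 CPM in siJag1 (log2 fold change −1.35, SE 0.40, adjusted p = 0.543, and −0.84 without replicate 2). Again no library of one group reached the other, which was also so for 658 genes lower and 680 higher of all tested. HEY1, another RBPJ target, behaved differently from HES1, with 7.35, 8.09 and 8.15 CPM in siCtrl and 7.43, 4.00 and 6.85 CPM in siJag1, so that its log2 fold change of −0.41 became −0.14 without replicate 2. Among the other target genes tested, HES6 (−0.62) and HES7 (−0.61, or −0.33 without replicate 2) were under 2 CPM. The oncogenic transcription factor MYC gave −0.36, or −0.11 without replicate 2. SOX9 (0.10), BMP2 (0.05), CCND1 (0.02), SNAI2 (0.02) and PLAUR (−0.02) overlapped between the groups. Of the 11 target genes tested, 0 were called, 2 had an unadjusted p under 0.05 (18.2%, HES1 and HES4), and the median was −0.36, which became −0.11 without replicate 2.

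Among the 31 tested genes of receptor processing and Notch transcription, 0 were called. MIB2, a ubiquitin ligase that acts on Notch ligands, gave −0.66, or −0.43 without replicate 2. FURIN, which cleaves the Notch precursor, gave −0.35, or −0.15 without replicate 2, with overlapping groups. The list median was −0.05.

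Collagens were the list with the largest share of lower genes at an unadjusted p under 0.05. Of 44 chains listed, 21 were tested, and 13 had a fold change below 1, against 6246 of all 12774 genes. Of the 21, 12 (57.1%) were lower at an unadjusted p under 0.05, against 4.95% of all genes. Those higher at this level were 2 (9.52%, against 2.94%), and the calls were COL6A3 and COL18A1. The median was −0.45, and −0.44 without replicate 2, with pair medians of −0.41, −0.33 and −0.15 on the log2(CPM + 1) scale. The list was written with earlier results of these samples known, so its direction is no independent evidence.

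The 3 chains of the common collagen VI trimer lay in the same direction. COL6A1 was at 52.9, 67.2 and 53.5 CPM in siCtrl and at 30.3, 23.7 and 29.2 CPM in siJag1 (log2 fold change −1.07, SE 0.14, adjusted p = 0.151). COL6A2, near the filter, was at 1.91, 2.50 and 1.14 CPM in siCtrl and at 0.680, 0.270 and 0.839 CPM in siJag1 (−1.67, SE 0.49, adjusted p = 0.536, and −1.05 without replicate 2). In both, all siJag1 libraries were below all controls, but only COL6A3 passed the test.

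COL5A1, which encodes a chain of the fibril-nucleating collagen V, was at 69.3, 76.1 and 68.4 CPM in siCtrl and at 44.5, 43.5 and 44.6 CPM in siJag1. The separation was clean and the log2 fold change was −0.70 (SE 0.091, adjusted p = 0.123). The collagen IV pair of the basement membrane gave −0.54 for COL4A2 (SE 0.083, adjusted p = 0.226) and −0.45 for COL4A1 (SE 0.14, adjusted p = 0.561). COL4A2 did not overlap, with 103 to 137 CPM against 75.4 to 93.8, whereas COL4A1 did. COL7A1, the anchoring fibril collagen, gave −0.35. On the higher side, COL12A1 was at 40.5, 51.3 and 41.8 CPM in siCtrl and at 52.3, 68.9 and 58.0 CPM in siJag1 (0.42, SE 0.092, adjusted p = 0.372), and COL8A1 gave 0.54, or 0.30 without replicate 2.

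Enzymes that mature collagen had smaller differences. Of 23 tested, 5 were lower (21.7%) and 1 higher at an unadjusted p under 0.05, 0 were called, and the median was −0.15. BMP1, the procollagen C-proteinase, was at 43.8, 41.5 and 37.7 CPM in siCtrl and at 25.9, 24.1 and 22.9 CPM in siJag1 (log2 fold change −0.76, SE 0.099, adjusted p = 0.123). No library of one group lay among the other. The crosslinking lysyl oxidases LOXL2 (−0.37) and LOX (−0.40) followed, LOX with overlapping groups and at −0.22 without replicate 2.

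Laminins, nidogens and basement membrane proteoglycans had 10 of 12 tested members below 1-fold, against 6246 of all 12774 genes. At an unadjusted p under 0.05, 3 were lower (25%, against 4.95% of all genes). The list had 0 called genes and a median of −0.23, or −0.13 without replicate 2. LAMA5, the α5 laminin chain, was at 238, 225 and 206 CPM in siCtrl and at 147, 94.8 and 162 CPM in siJag1 (−0.77, SE 0.16, adjusted p = 0.372). All siJag1 libraries were below the controls. NTN4, a laminin-related netrin, gave −0.63 (−0.45 without replicate 2), and agrin, AGRN, gave −0.54 (−0.28 without replicate 2) with siJag1 replicate 3 within the control range.

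Of the 24 other matrix glycoproteins tested, 1 was called (LTBP3), and the median was −0.17. At an unadjusted p under 0.05, 4 were lower (16.7%, against 4.95% of all genes) and 2 higher (8.33%, against 2.94%). TGFBI, a TGFβ-induced matrix protein, was at 23.3, 37.2 and 23.1 CPM in siCtrl and at 13.7, 23.5 and 12.9 CPM in siJag1. Replicate 2 was highest in both groups, so the ranges overlapped although each pair differed (log2 fold change −0.76, SE 0.12, adjusted p = 0.217). CCN2, the matricellular protein also known as CTGF and a target of TGFβ and YAP, was at 117, 195 and 173 CPM in siCtrl and at 175, 405 and 278 CPM in siJag1. It was higher in each pair (0.77, SE 0.12), or 0.61 without replicate 2, and did not pass in edgeR (adjusted p = 0.241).

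Of 15 integrin subunits tested, 6 (40%) were lower and 2 (13.3%) higher at an unadjusted p under 0.05, with 0 calls and a median of −0.12. ITGA1, the collagen-binding α1 subunit, was at 177, 169 and 178 CPM in siCtrl and at 137, 129 and 115 CPM in siJag1 (−0.47, SE 0.095, adjusted p = 0.354). The groups were separate, as for ITGB4, the laminin-binding β4 subunit (−0.71), and ITGB3 (−0.75). ITGB8, a receptor for latent TGFβ, was the subunit with the largest higher value, at 1.12 (0.69 without replicate 2), and its siJag1 replicate 2 was at 8.54 CPM against 2.89 and 3.29 CPM in the other two.

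**Figure D3:**
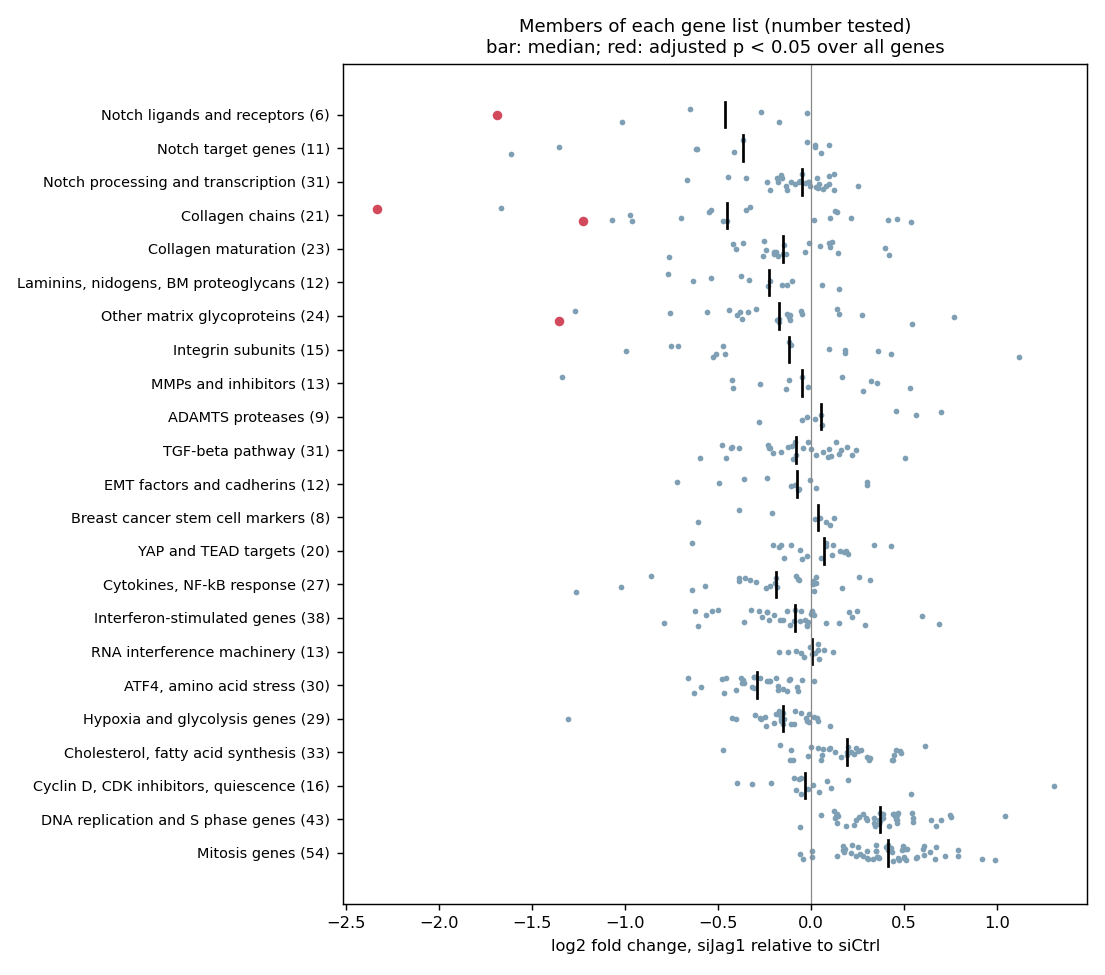
Log2 fold change of siJag1 relative to siCtrl for each tested member of the 23 gene lists, 1 dot per gene, with the number tested in brackets, a black bar at the list median and adjusted p under 0.05 in red. The collagen list reaches farthest to the left, with COL6A3 at −2.33, and the S phase and mitosis lists sit to the right of 0.

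Proteases and their inhibitors had 0 calls. Of 13 metalloproteinases and inhibitors tested, 2 were lower (15.4%, against 4.95% of all genes) and 1 higher (7.69%, against 2.94%) at an unadjusted p under 0.05. The stromelysin MMP10 was at 56.8, 46.5 and 70.3 CPM in siCtrl and at 38.1, 6.60 and 38.3 CPM in siJag1. The siJag1 replicate 2 was far below the rest, and the log2 fold change of −1.34 became −0.75 without that replicate. The inhibitor TIMP3 gave −0.42, or −0.67 without replicate 2, and membrane-type MMP16 gave 0.36. Of 9 ADAMTS proteases tested, 0 were lower and 3 higher at that level (33.3%, against 2.94% of all genes). The 3 were ADAMTS9 (0.46), ADAMTS6 (0.57) and ADAMTS1 (0.70, or 0.34 without replicate 2), all with overlapping groups.

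In the TGFβ pathway 31 genes were tested, 0 were called, and the median was −0.08. At an unadjusted p under 0.05, 4 were lower (12.9%, against 4.95% of all genes) and 1 higher (3.23%, against 2.94%). SMAD3, a signal transducer of the TGFβ receptors, was at 337, 283 and 286 CPM in siCtrl and at 258, 213 and 209 CPM in siJag1. All siJag1 values were lower, and the fold change was nearly the same without replicate 2 (−0.42, SE 0.089, and −0.44). The receptor TGFBR1 gave −0.38 in both fits, and the ligand TGFB1 gave −0.46, or −0.25 without replicate 2.

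EMT factors and cadherins numbered 12 tested with 0 called and a median of −0.08. Those with the smallest p were epithelial genes. The tight junction protein CLDN7 gave −0.72 (−0.45 without replicate 2), the splicing regulator ESRP2 −0.50 and occludin, OCLN, −0.24. Of 8 breast cancer stem cell markers, 1 had an unadjusted p under 0.05. It was ALDH1A3, an aldehyde dehydrogenase, at 33.5, 30.0 and 25.8 CPM in siCtrl and at 23.7, 14.9 and 21.1 CPM in siJag1 (−0.61, SE 0.15, adjusted p = 0.473), with no overlap. KLF4 (−0.21) and LGR5 (−0.39) overlapped, and without replicate 2 they gave 0.12 and −1.41. Of 20 YAP and TEAD targets, IGFBP3 was lower (−0.64) and ANKRD1 higher (0.43) at that level, ANKRD1 mostly through replicate 2 (0.13 without it), CRIM1 came next by p (0.20), and the list median was 0.07.

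Of the cytokine and NF-κB list, PTGES had the smallest p. PTGES, the inducible prostaglandin E synthase at chr9:129738349-129753042, was at 63.4, 36.3 and 45.2 CPM in siCtrl and at 30.8, 19.3 and 21.2 CPM in siJag1. Every siJag1 library was below every control, and the log2 fold change of −1.02 (SE 0.10) missed the threshold narrowly with an adjusted p of 0.0553. SERPINB9, an inhibitor of granzyme B that is in none of the lists, was at 37.8, 46.3 and 34.6 CPM in siCtrl and at 20.0, 17.9 and 17.4 CPM in siJag1. It too was separated (−1.10, SE 0.12, adjusted p = 0.0888). F2RL1, a protease-activated receptor, was at 534, 437 and 556 CPM in siCtrl and at 319, 321 and 339 CPM in siJag1 (−0.64, SE 0.11, adjusted p = 0.254).

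The cytokine IL6 was at 157, 191 and 242 CPM in siCtrl and at 101, 41.7 and 124 CPM in siJag1. Replicate 2 was lowest in siJag1 but not in siCtrl, and the log2 fold change of −1.26 (SE 0.26) became −0.83 without that replicate. Of the 27 tested genes of the cytokine and NF-κB list, 7 (25.9%) were lower and 0 higher at an unadjusted p under 0.05, and 0 were called. The median of −0.19 depended on replicate 2, where the pair median was −0.73 against 0.12 and 0.11 in the other two, and it was 0.07 without that replicate.

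Interferon-stimulated genes, which double-stranded RNA can induce, were examined because both groups had received siRNA. A response to siRNA that the groups share cannot be seen in this comparison, only a difference between them. Of 38 tested, 7 (18.4%) were lower and 0 higher at an unadjusted p under 0.05, 0 were called, and the median was −0.09, or −0.20 without replicate 2. IFIT2 (−0.50), ISG20 (−0.79) and OASL (−0.62) were the smallest by p, each with overlapping groups. Of 13 genes of the RNA interference machinery, 0 had an unadjusted p under 0.05 and the median was 0.01. AGO2, the slicing Argonaute, was at 379 to 425 CPM in siCtrl and 302 to 430 in siJag1, and AGO1 (−0.17) and DROSHA (0.12) overlapped as well.

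The remaining genes with the smallest p on the lower side had diverse roles. ATP6V0D2, a subunit of the vacuolar proton pump, was at 14.9, 14.9 and 15.1 CPM in siCtrl and at 7.14, 6.11 and 5.74 CPM in siJag1 (−1.25, SE 0.15, adjusted p = 0.117). Replicates agreed closely within each group. IGFBP1, an insulin-like growth factor binding protein, gave −0.95 (SE 0.12), and the tetraspanin CD82 gave −0.69 (SE 0.088), both with an adjusted p of 0.123 and without overlap.

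On the higher side no gene passed in edgeR. With DESeq2 the adjusted p was 0.000324 for AOX1 and 0.000189 for CCN2, whereas CNTNAP1 (0.0868) and SLC16A7 (0.114), for example, did not pass there either. AOX1, an aldehyde oxidase, had the smallest p, with 77.2, 95.8 and 83.9 CPM in siCtrl and 117, 187 and 137 CPM in siJag1 (log2 fold change 0.75, SE 0.11, adjusted p = 0.155). C12orf75 (0.67), the phospholipase D family member PLD5 (0.78), CNTNAP1 (0.58), SHISA2 (0.58), ADGRF1 (0.70), SRGN (0.48), TNFRSF1B (0.92), LPAR1 (0.62) and SLC16A7 (0.60) followed with CCN2 and FAT3. TNFRSF1B encodes a TNF receptor, LPAR1 a receptor for lysophosphatidic acid, SRGN the proteoglycan serglycin and SLC16A7 a monocarboxylate transporter. The protocadherin FAT3 was at 10.3, 18.7 and 14.2 CPM in siCtrl and at 16.2, 45.6 and 22.9 CPM in siJag1, overlapping but higher in each pair (0.89, SE 0.17, adjusted p = 0.297).

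In several lists of growth and metabolism the differences lay in the replicate 2 pair. The S phase list, 43 genes of DNA replication, had 42 members with a fold change above 1, against 6528 of all 12774 genes. Its median was 0.37. Its pair medians were 0.03, 1.12 and −0.11 on the log2(CPM + 1) scale, and without replicate 2 the median was −0.07 with 32 members below 1. The mitosis list, 54 genes, had 52 above 1 and a median of 0.41, with pair medians of 0.20, 0.93 and −0.03, and the median was 0.07 without replicate 2. At an unadjusted p under 0.05, 2 S phase genes (4.65%) and 15 mitosis genes (27.8%) were higher, and 0 in either list were called. HJURP, a histone chaperone of centromeres, was at 7.92, 37.0 and 11.8 CPM in siCtrl and at 13.0, 79.3 and 14.0 CPM in siJag1, highest in the replicate 2 library of both groups. Its log2 fold change was 0.72, or 0.45 without replicate 2. The mitotic kinase CDK1 (0.57, or 0.33 without replicate 2), the cytoskeletal linker GAS2L3 (0.44, or 0.40), and BLM (0.55, or 0.26) and CENPU (0.46, or 0.16) of the S phase list were also highest in replicate 2 of both groups. CDCA7 of the S phase list (1.04, or 0.21 without replicate 2) was highest in replicate 2 in siJag1 but in replicate 3 in siCtrl.

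The list of cyclin D, CDK inhibitors and quiescence genes had a median of −0.03 over 16 genes. CDKN2C, an E2F-responsive CDK inhibitor, was at 1.20, 2.63 and 1.60 CPM in siCtrl and at 1.13, 16.3 and 1.89 CPM in siJag1. Its log2 fold change of 1.30 came from 1 library and was 0.07 without replicate 2. CCND2 (−0.40) and CDKN1A, which encodes p21 (−0.32), overlapped, and without replicate 2 they gave −0.22 and −0.09.

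ATF4 and amino acid stress genes had 29 of 30 members below 1, against 6246 of all 12774 genes, and a median of −0.29. The pair medians were −0.03, −0.82 and 0.07, and the median was −0.02 without replicate 2. The members with the smallest p were VLDLR (−0.36), NUPR1 (−0.63) and GPT2 (−0.30), and without replicate 2 they gave −0.20, −0.23 and −0.14. Cholesterol and fatty acid synthesis genes had 27 of 33 above 1, against 6528 of all 12774 genes, and a median of 0.20. The pair medians were −0.06, 0.71 and −0.03, and the median was −0.10 without replicate 2. The transcription factor SREBF1 gave −0.47, against 0.49 for SC5D and 0.48 for MSMO1, enzymes of late sterol synthesis. Without replicate 2 these were −0.36, 0.27 and 0.12.

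Hypoxia and glycolysis genes did not share this pattern. Of 29 tested, 25 had a fold change below 1, against 6246 of all 12774 genes. Without replicate 2 this was 27, against 6544 of all genes. In the list 0 genes were called, and the median was −0.15 in both fits. The pair medians were −0.08, 0.02 and −0.18 on the log2(CPM + 1) scale, so the lower direction lay in replicates 1 and 3. CA9, a hypoxia-induced carbonic anhydrase, was at 7.07, 25.6 and 10.4 CPM in siCtrl and at 2.89, 16.1 and 2.10 CPM in siJag1. Each pair was lower although the groups overlapped (−1.30, SE 0.30, adjusted p = 0.410). NDRG1 (−0.40) and CA12 (−0.42, or −0.67 without replicate 2) overlapped as well.

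**Figure D4:**
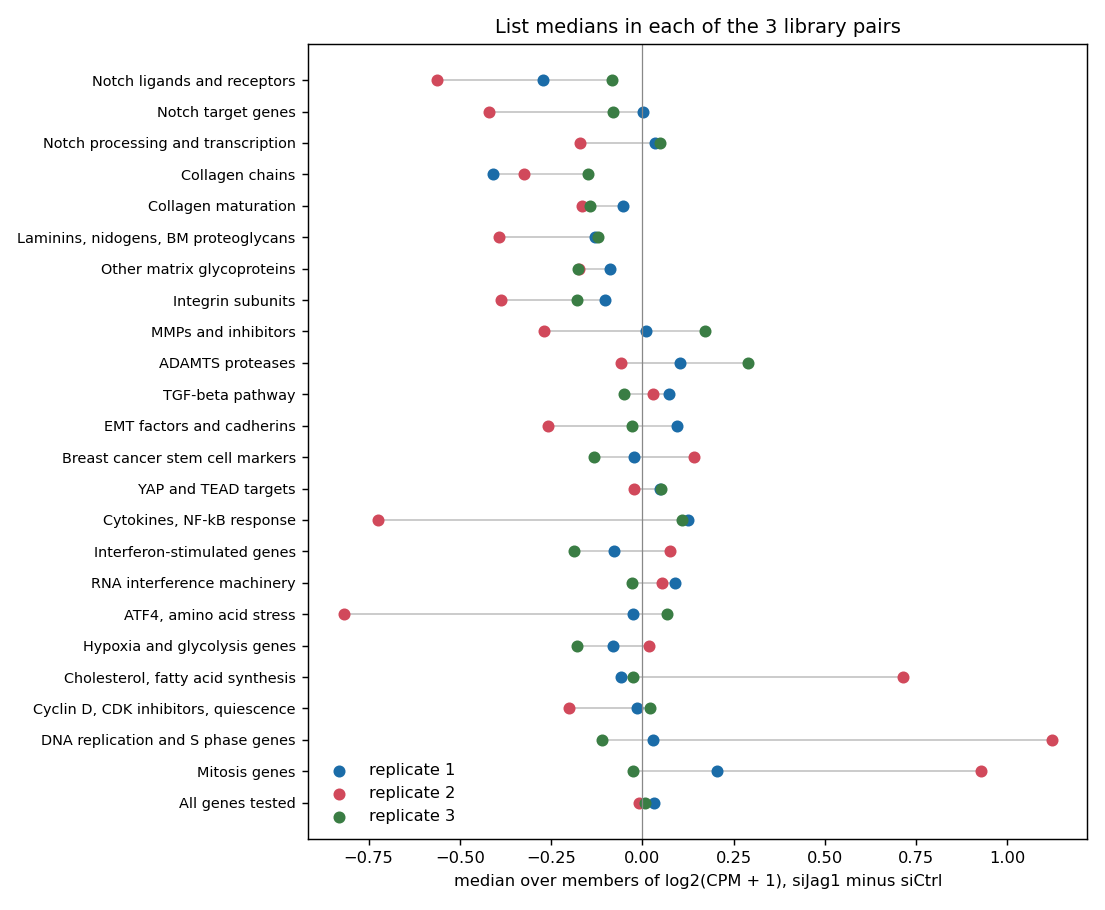
Median over the tested members of each list of the difference in log2(CPM + 1) between siJag1 and siCtrl, 1 dot for each of the 3 library pairs. Replicate 2 (red) stands apart for the S phase (1.12), mitosis (0.93), cholesterol (0.71), cytokine (−0.73) and ATF4 (−0.82) lists, while the collagen dots all lie between −0.41 and −0.15.

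A rule with no model, added after the values had been seen, took genes whose levels differed by over 1.5-fold in the same direction in each of the 3 pairs on the log2(CPM + 1) scale. It kept 33 genes lower (0.258% of those tested) and 5 higher (0.0391%). The 33 were JAG1, COL6A3, COL18A1, LTBP3, COL6A1, COL5A1, BMP1, TGFBI and the microfibril protein MFAP2, of which all but JAG1 belong to the matrix and its assembly, HES1, PTGES, SERPINB9, IL6, IGFBP1, CD82, ATP6V0D2 and CA9 of those described above, and 16 others. The transcription factor ELF3 was at 11.2, 6.00 and 9.59 CPM in siCtrl and at 2.83, 2.49 and 3.78 CPM in siJag1, and the cholesterol exporter ABCA1 was at 48.0, 80.7 and 64.2 CPM in siCtrl and at 26.7, 25.9 and 39.7 CPM in siJag1. The retinol-metabolising reductase DHRS3 (−1.91), the protease inhibitors PI3 (−1.56) and SLPI (−0.996), the sphingosine kinase SPHK1 (−0.996), the hyaluronidase CEMIP (−0.88) and the receptors EPHB6 (−2.69) and CMKLR1 (−1.50) were also among them. So were TFF2 (−1.98), HKDC1 (−1.31), HCN4 (−1.27), RIMKLA (−1.09) and KLRC2, KRT81 and KRT86, of which the last 3 have near-identical paralogs that may share reads. None of these 16 was called by edgeR. The 5 higher genes were AOX1, PLD5, FAT3, TNFRSF1B and PTPN22, a tyrosine phosphatase.

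These 38 genes were then looked up in the 6 libraries of Jag1WT and Jag1KO, none of which had been used to choose them. All 33 lower genes also had a fold change below 1 in Jag1KO, against 49.4% of the 12765 genes tested there, and HKDC1, at −0.003, was the nearest to 0. Of the 33, 23 (69.7%) were called lower in Jag1KO, against 1.18% of all genes, and 0 were called higher, against 0.870%. JAG1, targeted in both experiments, is counted in the 33 and in the 23. Of the 5 higher genes, 4 were above 1 in Jag1KO (50.6% of all genes were), 2 were called higher, AOX1 and FAT3, and PLD5 was on the other side (−0.35). The medians of the 33 were −1.25 after siRNA and −1.11 in Jag1KO. With the rule applied to replicates 1 and 3 alone, 63 genes were lower, and 31 of them (49.2%) were called lower in Jag1KO.

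JAG1 RNA, edited or intact, differed by −1.69 after siRNA and by −1.73 in Jag1KO (SE 0.13, adjusted p = 0.000189 by edgeR). COL6A3, COL18A1 and LTBP3 were called in Jag1KO too, at −3.86 (SE 0.18), −1.83 (SE 0.12) and −0.92 (SE 0.14). HES1 (−3.01), PTGES (−2.10), SERPINB9 (−1.18), ATP6V0D2 (−1.75), IGFBP1 (−0.62), CD82 (−0.71), BMP1 (−0.85) and COL5A1 (−0.64), which had not passed in edgeR after siRNA, were each called in Jag1KO. With DESeq2 and the replicate block, each of them had an adjusted p under 0.05 after siRNA, from 4.03e-06 (PTGES) to 0.00415 (BMP1). COL6A1, MFAP2 and TGFBI were not called in Jag1KO.

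The difference between the siRNA effect and the knockout effect was tested in 1 fit over the 12 libraries. It passed for 19 of 12765 genes, 14 with the siRNA effect below the knockout effect (0.110%) and 5 with it above (0.0392%), and 894 genes had an unadjusted p under 0.05. Of the genes called after siRNA, COL6A3 was among the 19, being less reduced after siRNA than in Jag1KO by 1.52 on the log2 scale (SE 0.23, adjusted p = 0.0450). Its means were 80.7 ± 7.14 CPM in siCtrl, 16.5 ± 5.38 in siJag1, 73.3 ± 10.4 in Jag1WT and 4.96 ± 0.228 in Jag1KO (SD, n = 3 each). For JAG1 the difference was 0.05 (SE 0.18), for COL18A1 0.61 (SE 0.17, adjusted p = 0.392), for LTBP3 −0.43 (SE 0.19) and for HES1 1.40 (SE 0.55, adjusted p = 0.655).

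**Figure D5:**
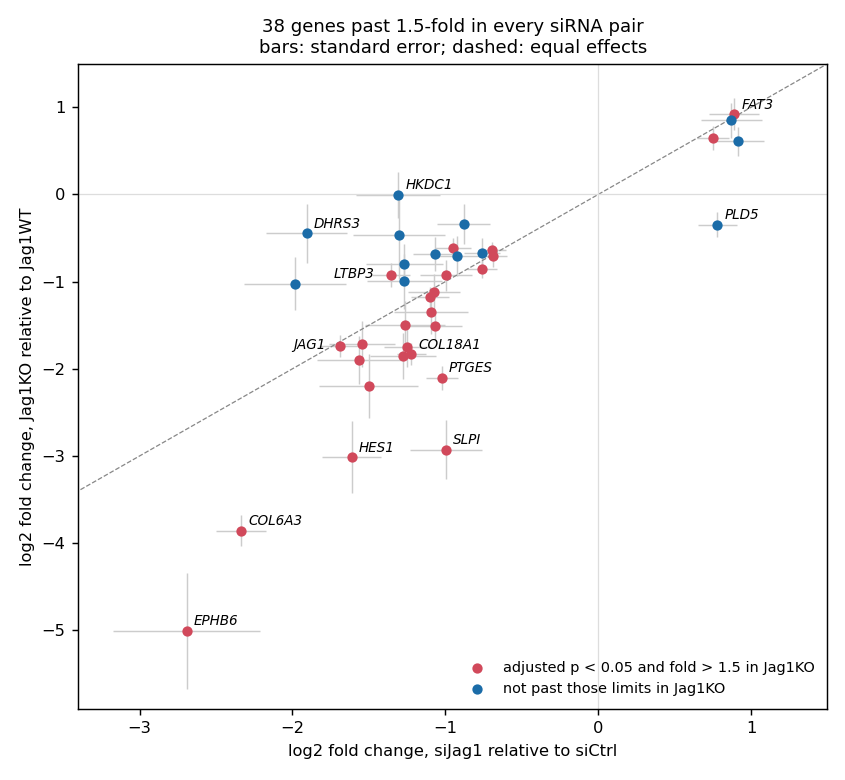
Log2 fold change after JAG1 siRNA (horizontal axis) against that in the JAG1 knockout (vertical axis) for the genes past 1.5-fold in every siRNA pair, with standard errors as bars and a dashed line of equal effects. All 33 genes to the left of 0 lie at or below 0 on the vertical axis, and COL6A3, at −2.33 and −3.86, lies well below the dashed line.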

How the data were processed

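Stranded mRNA libraries of 6 cultures, 3 per group, were sequenced by the authors, aligned to hg38, and uniquely mapped reads were counted per gene (featureCounts, edgeR 3.28.0 and R 3.6.1 are named in the submitters' processing notes). The counts as deposited were not normalized. The deposited CPM signal was scaled by the authors with TMM. The deposited RPKM gave only gene lengths, and 3 RPKM columns matching no label were not used. Genes without a symbol (292 rows, at most 0.0359% of counts) were left out.

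edgeR 4.0.16 (R 4.3.3) fitted group and replicate number with TMM, robust spread and Benjamini-Hochberg adjustment over 12774 genes. Standard errors are the log2 fold change over the square root of F. DESeq2 1.42.0, limma 3.58.1 on log2(CPM + 1) and other settings were alternatives. The scripts were tested on simulated data. Labels call the replicates biological, and within-group library pairs differed beyond sampling noise (chi-square per degree of freedom 7.34 to 66.2). The replicate number was set as the block in the plan of this comparison. All 3 same-number correlations exceeded 0.1, although for replicates 1 and 3 the largest with another number did too. The named genes were JAG1, the 12 smallest p per direction, all Notch ligands, receptors and targets tested, and up to 3 members of every other list; the members and lists were chosen with earlier results of these data known. A few results that the rule would name are not reported here. S phase and mitosis genes came from Seurat 5.3.0. Figures used matplotlib. Genes near 1 CPM rest on few reads. Fold changes on the log2(CPM + 1) scale understate low genes.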

Additional observations from a re-analysis of the deposited data

Results flagged for a closer look

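For 19 genes the siRNA effect differed from the knockout effect in the interaction test (edgeR, adjusted p under 0.05), given here as the siRNA log2 fold change minus that of the knockout. Genes other than COL6A3 were named after their values were seen. COL6A3 was reduced in both but less after siRNA (1.52), and COL7A1 was −0.34 after siRNA and 0.36 in Jag1KO (−0.71). For most of the others the siRNA effect was near 0 while Jag1KO differed from Jag1WT. The cancer-testis genes, whose near-identical copies may share reads, gave MAGEC1 −2.17, MAGEC2 −1.62, SPANXA1 −2.0, SPANXA2 −1.57 and SPANXB1 −1.16 on 1 side, and MAGEB2 5.07, MAGEA12 2.45 and MAGEA2B 2.15 on the other. PLCB1 gave 3.81. IL13RA2 gave −1.56, KCNN3 −2.08, SAA1 −1.10, IGFN1 −2.99, ALOX12B −2.76, AZGP1 −1.64 and PVT1 −1.07. FST, which encodes the activin antagonist follistatin, was higher in both, by 0.65 after siRNA and by 1.92 in Jag1KO (−1.28). The siRNA cultures came from parental cells and the knockout from a mixture of clones, and only the siRNA experiment included transfection. The means of lowering JAG1, the cell source and the transfection therefore cannot be told apart.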

How the results depend on the processing

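With 3 libraries a group, the calls were few and moved with the setting. The 4 genes lower stayed 4 with RLE size factors, without the robust estimate and with limma and the block, and the same 4 were among the 41 lower of DESeq2 (10 higher) and the 15 lower (2 higher) with no filter on low counts. Without the replicate block edgeR called 2 lower, COL6A3 and LTBP3, and limma called 0, with 321 lower and 175 higher at an unadjusted p under 0.05. JAG1 was then at −1.68 in both (adjusted p 0.103 and 0.0794). Leaving out replicates or single libraries gave 0 to 102 genes lower and 0 to 27 higher, and JAG1 ranged from −1.85 to −1.52. The 102 and 27 arose without replicate 2, where 1 residual degree of freedom was left and the prior degrees of freedom were infinite, so these p values are too small. Without replicate 1, COL18A1 and LTBP3 were lost (2 lower), and without replicate 3 the count was 10. In fits without the block, leaving out any siCtrl library or siJag1 replicate 3 left 0, without siJag1 replicate 1 it was 1, and without siJag1 replicate 2 it was 11. The rule of a fold over 1.5 in every pair, chosen after seeing the data, gave 33 genes lower and 5 higher, and 63 and 13 with replicate 2 left out. The 19 genes differing between siRNA and knockout numbered 14 without the block and 0 to 16 with an siRNA replicate left out, with 0 without replicate 1 and 10 without replicate 3. The cause of these changes was not tested.

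Of 95 named genes, 16 changed sign in some fit with a library or replicate left out, and the others kept their direction in all of them. Their log2 fold changes ranged from −0.12 to 0.11 for CCND1, −0.16 to 0.16 for SNAI2, −0.11 to 0.25 for BMP2, −0.068 to 0.023 for DNER, −0.14 to 0.17 for PLAUR, −0.092 to 0.31 for DROSHA, −0.50 to 0.12 for KLF4, −0.23 to 0.016 for AGO2, −0.25 to 1.21 for BLM, −0.58 to 0.026 for CCND2, −0.18 to 1.23 for CDK1, −0.30 to 2.34 for CDKN2C, −0.37 to 1.19 for CENPU, −0.49 to 0.021 for DLK2, −0.50 to 1.85 for HJURP and −1.41 to 0.16 for LGR5. Over all settings, 66 values of named genes that had missed the threshold passed it and 20 that had passed it missed it, all in their original direction. Of the list medians, 343 values moved by less than the spread between replicates and 25 by more.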
